A study of Mus musculus with 12 samples.

Results

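The genes of MHC class II antigen presentation were described in mouse hematopoietic stem cells (HSCs) of 4 genotypes. They were chosen by gene symbol and role: the class II chains H2-Aa, H2-Ab1 and H2-Eb1, the invariant chain Cd74, the peptide exchange factor subunits H2-DMa and H2-DMb1, and the activator Ciita. All 7 were found among the 18546 genes of the deposited table, and all 7 were among the 15478 genes tested, each with reads in all 12 libraries.

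The cells were SLAM HSCs (CD150+CD48-Lin-Sca1+cKit+) sorted from marrow, and the mice were C57BL/6 and 10 to 12 weeks old. The groups were NrasG12D/+ mice, with 1 activating Nras allele, Tet2+/- mice, with 1 Tet2 allele lost, NrasG12D/+;Tet2+/- mice with both (here compound mutants), and wild-type mice, with 3 libraries each. Whether the alleles were germline or conditional, and any Cre driver, is not given in the sources used here. Stranded libraries were made from total RNA after ribosomal and mitochondrial RNA had been removed. Levels are given as RPKM, which are reads scaled to the length of the gene and to the depth of the library.

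MHC class II molecules are pairs of an alpha and a beta chain that show peptides from endosomes to CD4+ T cells. They are best known from B cells, dendritic cells and macrophages, and have also been described on blood stem and progenitor cells. The invariant chain, Cd74, fills the binding groove of a new molecule until endosomal proteases such as cathepsin S remove most of it, and H2-DM, a dimer of H2-DMa and H2-DMb1, then exchanges the last fragment for a peptide. Ciita, a coactivator that does not bind DNA itself, is recruited to class II promoters by the RFX, CREB and NF-Y factors that sit on their X and Y boxes, and interferon gamma is a classical inducer of Ciita outside the B and dendritic lineages.

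RefSeq promoter windows (GRCm38.p6, 250 bases before to 50 after the start) were at hand for 4 of the 7 members, H2-Aa, H2-Eb1, H2-DMa and H2-DMb1. The stretches below come from such windows and show letters found in X and Y boxes. The capitals mark the letters CNNGNAAC, found in X boxes, and TGATTGG, the Y box with its inverted CCAAT, and H2-DMb2 is set beside its paralog.
H2-Aa promoter, chr17:34287854-34287911, minus strand: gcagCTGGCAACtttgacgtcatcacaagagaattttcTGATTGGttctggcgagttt
H2-Eb1 promoter, chr17:34305768-34305825, plus strand: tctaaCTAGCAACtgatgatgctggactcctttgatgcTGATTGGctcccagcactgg
H2-DMb1 promoter, chr17:34153090-34153147, plus strand: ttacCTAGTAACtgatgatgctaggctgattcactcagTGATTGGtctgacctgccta
H2-DMb2 promoter, chr17:34145119-34145176, plus strand: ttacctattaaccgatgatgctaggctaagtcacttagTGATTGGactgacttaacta

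The gap between the 2 runs of letters was 26 bases in H2-Aa, 25 in H2-Eb1 and 26 in H2-DMb1. Such a pair, on either strand with a gap of 15 to 40 bases, was found in 64 of 32851 promoter windows (0.195%), from 59 genes, and these included H2-Oa, H2-Ob and H2-Eb2 of the same region. The X letters alone were in 39.1% of windows and the Y letters alone in 7.82%, and the 2 motifs do not overlap. The motifs and the gap were chosen after these windows had been read. H2-DMa had no TGATTGG in either of its 2 windows, and H2-DMb2 had it without the X letters in front. A match here describes letters, not binding.

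The members lie at 3 loci (mm10, GENCODE M21). H2-DMa (chromosome 17, 34119541 to 34139101, plus strand), H2-DMb1 (34153072 to 34160230, plus), H2-Ab1 (34257689 to 34269419, plus), H2-Aa (34282744 to 34287823, minus) and H2-Eb1 (34305867 to 34316674, plus) are neighbours within the class II region. Ciita is on chromosome 16 (10480059 to 10528418, plus) and Cd74 on chromosome 18 (60803848 to 60812652, plus). The annotation places Dexi over Ciita, Brd2 over H2-DMa and Gm20513 over H2-Eb1, each on the opposite strand. It also places CR974462.3 over H2-DMa and Mir5107 over Cd74 on the same strand, where strand does not tell reads apart. Whether the authors' counting used strand is not given in the sources used here. Brd2 had 5483 to 13708 reads a library, against 585 to 1787 for H2-DMa. Dexi had 238 to 730 reads, against 220 to 772 for Ciita. How far reads of these neighbours enter the levels of H2-DMa and Ciita was not tested. H2-DMb1 has a close paralog, H2-DMb2, and how reads shared by both were counted is not known, so the levels of both are uncertain.

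Depth was 19205045 to 36890942 reads in genes per library. Between 1000 and 3824 genes had no read, the most in wild-type replicate 1, followed by NrasG12D/+ replicate 2 with 3268. Xist and the Y-linked gene Ddx3y marked 5 libraries as male and 7 as female, with 2 male libraries in the Tet2+/- group and 1 in each of the others. Nras RNA averaged 5.74 ± 0.882 RPKM in NrasG12D/+, 6.24 ± 0.981 in compound mutant and 5.58 ± 0.597 in wild-type HSCs, and Tet2 RNA 4.72 ± 0.579 RPKM in Tet2+/-, 4.98 ± 0.615 in compound mutant and 4.95 ± 0.0301 in wild-type HSCs (SD, n = 3 each), so RNA levels did not mark either allele. Of 12 HSC and gate markers, 11 had a median of at least 1 RPKM, with Kit at 64.7 to 86.0 RPKM, while Cd48, the marker selected against, had a median of 0 reads. In bulk RNA, fewer cells that use a gene and less RNA per cell cannot be told apart.

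Class II transcripts were present in every library, at different levels. In wild-type HSCs H2-Eb1 averaged 22.9 ± 6.90 RPKM, H2-Ab1 19.8 ± 4.04 and H2-DMa 19.4 ± 3.61, at or above the 87.2nd percentile of tested genes. H2-DMb1 (6.68 ± 2.18 RPKM), H2-Aa (5.20 ± 3.33), Cd74 (4.51 ± 1.58) and Ciita (2.03 ± 0.545, the 23.3rd percentile) were lower (SD, n = 3 each). Of neighbours in this order, H2-DMa and H2-DMb1 did not overlap in wild-type libraries, nor did Cd74 and Ciita, and all other neighbours did. In NrasG12D/+ libraries all neighbours in the order overlapped. H2-Eb1 had the highest mean and Ciita the lowest in all 4 genotypes.

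Partners of 1 protein complex were not at equal RPKM. H2-Ab1 exceeded H2-Aa in 12 of 12 libraries, by 1.30 to 17.9 times in RPKM with a median of 2.24, and the extreme was wild-type replicate 1. H2-DMa exceeded H2-DMb1 in 12 of 12 libraries, by 1.26 to 5.30 times. The invariant chain was below H2-Eb1 in RPKM in 12 of 12 libraries, by 2.05 to 9.98 times, and below H2-Ab1 in 12 of 12. Such ratios also depend on the gene lengths by which reads were divided. In reads, the order of some pairs varied between libraries. Cd74 had 1506 reads against 921 for H2-Eb1 in NrasG12D/+ replicate 2, and 243 against 723 in wild-type replicate 1. H2-Aa had 806 reads against 755 for H2-Ab1 in compound mutant replicate 2, and 89 against 1151 in wild-type replicate 1. For comparison, the class I genes B2m, the shared light chain, and H2-K1, a heavy chain, had medians of 696 and 79.6 RPKM over the 12 libraries, and Nlrc5, the class I counterpart of Ciita, had a median of 17.97 RPKM, against 2.38 RPKM for Ciita.

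**Figure D1:**
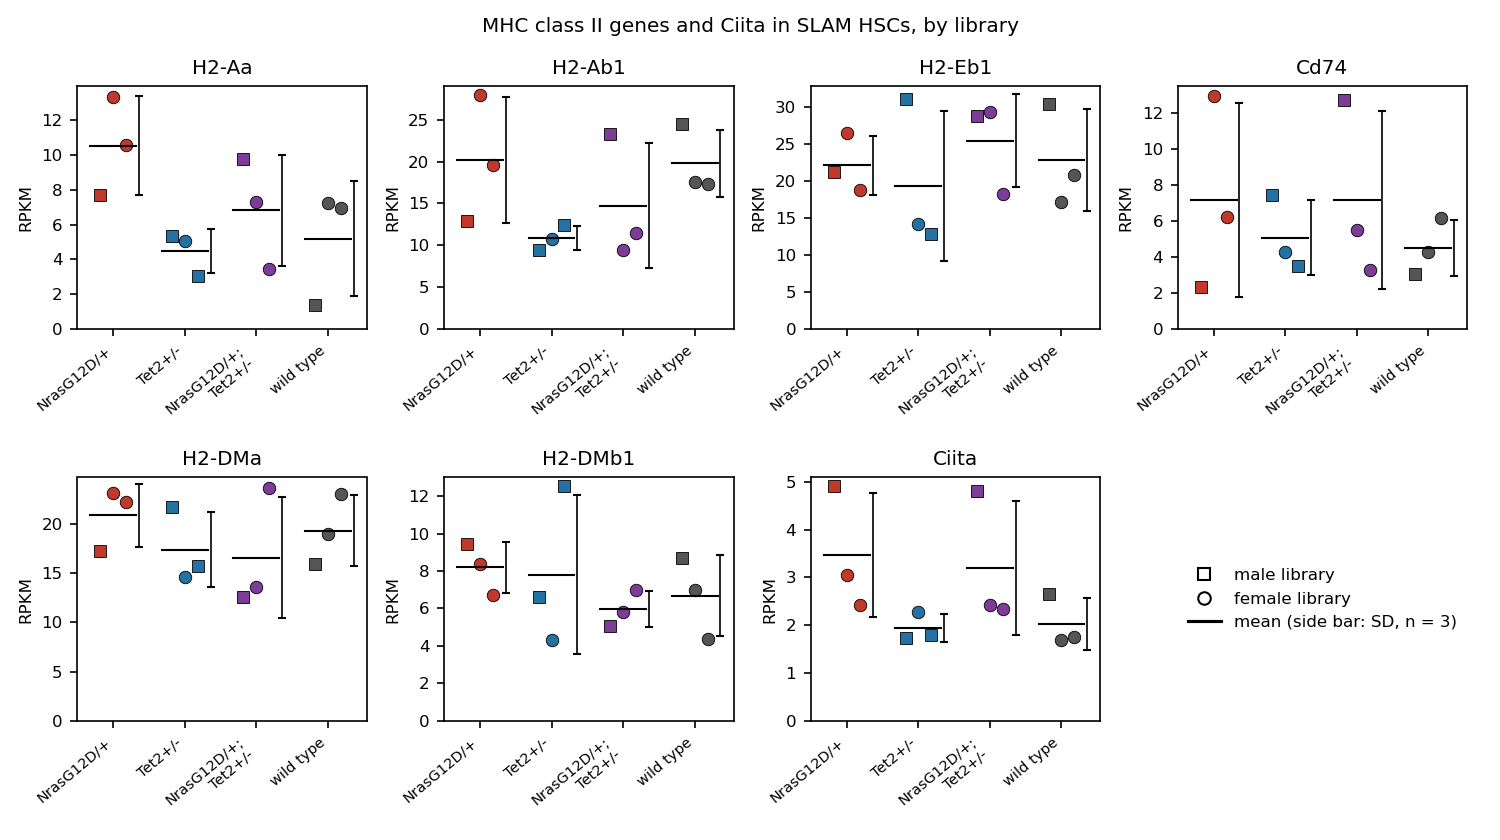
RPKM (linear axis from 0) of the 7 members in each library, by genotype, with squares for male and circles for female libraries, the mean as a line and the SD as a side bar (n = 3). The libraries of a genotype spread widely for H2-Aa and Cd74, and wild-type replicate 1 is the lowest point of H2-Aa at 1.36 RPKM.

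H2-Aa, the alpha chain of the I-A molecule, had the estimate furthest from wild type of the 7 members. Its level was 7.69, 13.4 and 10.55 RPKM in NrasG12D/+ libraries, 5.35, 5.09 and 3.05 in Tet2+/- libraries, 9.77, 7.28 and 3.43 in compound mutant libraries, and 1.36, 7.26 and 6.97 in wild-type libraries. All 3 NrasG12D/+ libraries lay above all 3 wild-type libraries, as did 5.27% of tested genes, while the other genotypes overlapped with wild type. The log2 RPKM difference between NrasG12D/+ and wild-type HSCs was 1.32 (95% interval -0.07 to 2.72; limma adjusted p = 0.870), and it was 0.53 without wild-type replicate 1. That library held 89 H2-Aa reads, with a 95% Poisson interval that covers counting error only of 71.5 to 109.5, against 592 and 787 reads in the other wild-type libraries. In compound mutant HSCs the difference from wild type was 0.61 (-0.79 to 2.002), and -0.19 without the same library, so its direction rested on that library. In Tet2+/- HSCs it was 0.09 (-1.31 to 1.48), and -0.71 without it.

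H2-Ab1, the beta chain of I-A, had a different profile. It stood at 12.9, 28.0 and 19.6 RPKM in NrasG12D/+ libraries, 9.45, 10.7 and 12.4 in Tet2+/- libraries, 23.3, 9.47 and 11.4 in compound mutant libraries, and 24.4, 17.6 and 17.3 in wild-type libraries. All 3 Tet2+/- libraries were below all 3 wild-type libraries, as were 2 of 3 compound mutant libraries. All 3 Tet2+/- libraries were below all 3 wild-type libraries for 4.01% of tested genes. The log2 difference between Tet2+/- and wild-type HSCs was -0.86 (-1.64 to -0.07), with an unadjusted p of 0.036 and an adjusted p of 1 in limma. Between compound mutant and wild-type HSCs it was -0.52 (-1.31 to 0.26) and between NrasG12D/+ and wild-type HSCs -0.02 (-0.81 to 0.76).

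H2-Eb1 is the beta chain of I-E, whose alpha chain gene is a defective allele in C57BL/6 mice, so that its protein has no partner in this strain. Its RNA had the highest mean RPKM of the members in each genotype, and the highest RPKM in 5 of 12 libraries, against 6 for H2-DMa and 1 for H2-Ab1. It stood at 21.2, 26.6 and 18.8 RPKM in NrasG12D/+ libraries, 31.1, 14.3 and 12.8 in Tet2+/- libraries, 28.8, 29.4 and 18.2 in compound mutant libraries, and 30.5, 17.1 and 20.9 in wild-type libraries. The 4 groups overlapped. Log2 differences from wild type were -0.02 (-0.79 to 0.76) in NrasG12D/+, -0.31 (-1.09 to 0.46) in Tet2+/- and 0.17 (-0.61 to 0.94) in compound mutant HSCs. The overlapping antisense gene Gm20513 had 97 reads in 1 Tet2+/-, 61 in 1 compound mutant and 16 in 1 wild-type library and none in the other 9.

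Cd74, the invariant chain, had the widest spread within genotypes of the 7 members. It had 2.33, 12.9 and 6.24 RPKM in NrasG12D/+ libraries, 7.42, 4.30 and 3.53 in Tet2+/- libraries, 12.7, 5.53 and 3.27 in compound mutant libraries, and 3.06, 4.28 and 6.19 in wild-type libraries. NrasG12D/+ libraries alone held both the lowest and the highest value of the 12. The within-genotype SD on the log2 scale was 0.88 for Cd74 and 0.85 for H2-Aa, at the 87.9th and 88.4th percentile of genes of similar level. Ciita, at 0.45, was at the 34.6th percentile. Log2 differences of Cd74 from wild type were 0.41 (-1.05 to 1.86) in NrasG12D/+, 0.16 (-1.29 to 1.61) in Tet2+/- and 0.50 (-0.95 to 1.95) in compound mutant HSCs, each with an interval that includes 0.

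In the H2-DM subunits the 4 groups overlapped. H2-DMa, the alpha subunit, had 17.3, 23.2 and 22.3 RPKM in NrasG12D/+ libraries, 21.8, 14.7 and 15.8 in Tet2+/- libraries, 12.6, 13.6 and 23.7 in compound mutant libraries, and 15.9, 19.1 and 23.1 in wild-type libraries. Its log2 differences from wild type were 0.11 (-0.46 to 0.69) in NrasG12D/+, -0.16 (-0.74 to 0.42) in Tet2+/- and -0.27 (-0.84 to 0.31) in compound mutant HSCs. These were the narrowest intervals of the 7 members, with a half-width of 0.58, or 1.49-fold, and they still admit differences of that size. H2-DMb1, the beta subunit, had 9.44, 8.40 and 6.74 RPKM in NrasG12D/+ libraries, 6.59, 4.28 and 12.5 in Tet2+/- libraries, 5.06, 5.81 and 6.98 in compound mutant libraries, and 8.70, 6.98 and 4.37 in wild-type libraries. Its log2 differences were 0.34 (-0.51 to 1.18) in NrasG12D/+, 0.14 (-0.70 to 0.98) in Tet2+/- and -0.12 (-0.97 to 0.72) in compound mutant HSCs.

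Ciita, the activator, was low in all genotypes. Its level was 4.92, 3.04 and 2.43 RPKM in NrasG12D/+ libraries, 1.73, 2.27 and 1.797 in Tet2+/- libraries, 4.81, 2.42 and 2.34 in compound mutant libraries, and 2.65, 1.68 and 1.74 in wild-type libraries, from 220 to 772 reads. All 3 compound mutant libraries lay above all 3 Tet2+/- libraries, as was the case for 6.22% of tested genes, and wild-type replicate 1 overlapped with both genotypes that carry NrasG12D. The log2 difference from wild type was 0.74 (-0.14 to 1.63) in NrasG12D/+, -0.05 (-0.93 to 0.84) in Tet2+/- and 0.60 (-0.28 to 1.49) in compound mutant HSCs. Between compound mutant and Tet2+/- HSCs it was 0.65 (-0.23 to 1.54; limma adjusted p = 0.938), and 0.31 without compound mutant replicate 1. Among female libraries alone, with 1 library of Tet2+/-, it was 0.07.

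**Figure D2:**
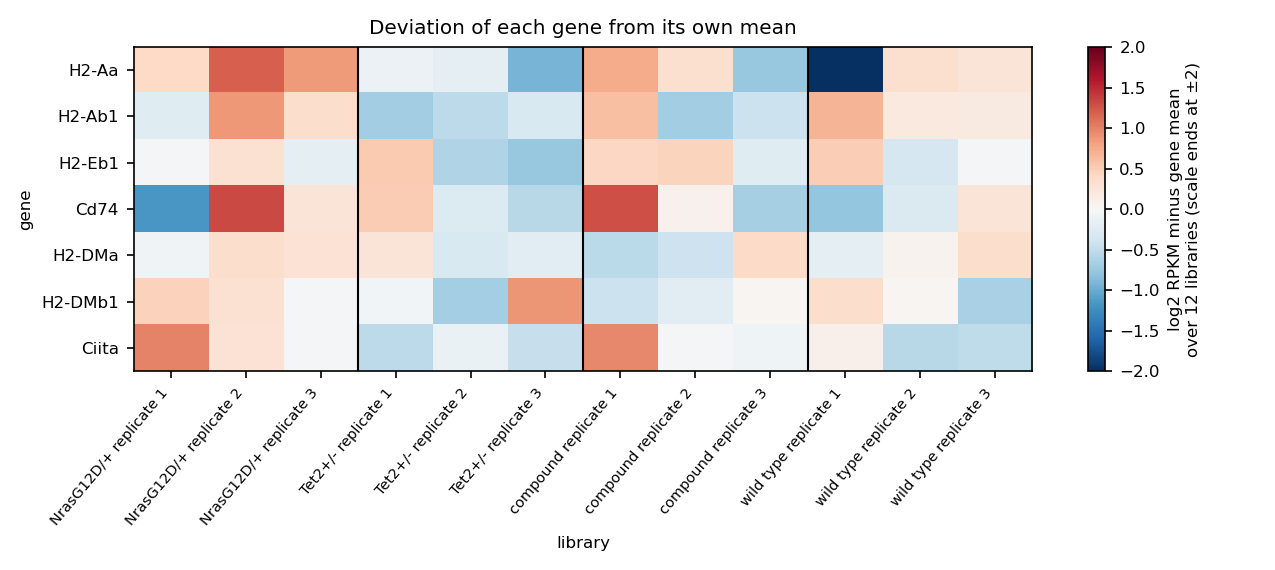
Log2 RPKM of each member (rows) in each library (columns, by genotype) less the mean of that gene over the 12 libraries, in red above and blue below it, with the colour scale ending at ±2. Wild-type replicate 1 is low for H2-Aa and not for H2-Ab1 or H2-Eb1, and Ciita is highest in NrasG12D/+ replicate 1 and compound mutant replicate 1.

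Correlations between members differed in sign. Over the 12 libraries the 21 pairs of members had Pearson correlations of log2 RPKM from -0.39 to 0.64 with a median of 0.11, as a description, since libraries share genotype and depth. The highest was between H2-Aa and Cd74 (0.64, and 0.67 within genotypes). The partner chains H2-Aa and H2-Ab1 stood at 0.18 and the H2-DM subunits at 0.08. Ciita correlated at 0.28 to 0.35 with the 3 chains, 0.11 with Cd74 and -0.39 with H2-DMa.

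An index of H2-Aa, H2-Ab1, H2-Eb1 and Cd74, the mean of their deviations, was highest in NrasG12D/+ replicate 2 (0.92) and compound mutant replicate 1 (0.76) and lowest in Tet2+/- replicate 3 (-0.64). Among the other tested genes those most like it over the 12 libraries were Jarid2 (r = 0.877), Gm22200, Gpam, Uqcrc2, Selenbp1 and Gm22106 (0.825), and those least like it Zfp579 (-0.949), Dhx37 and Kcnk6. Gm22200 and Gm22106 had no read in 9 of 12 libraries. The genes most like Ciita were 2310057M21Rik (0.902), Vezf1 and Cntrl. These are the extremes of 15478 genes and are given as a description.

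None of the 7 members passed the threshold of a Benjamini-Hochberg adjusted p under 0.05 over all 15478 genes in limma, in any of the 8 comparisons made. Nearly no gene did so. The share of tested genes called was 0.00646% (1 gene) in NrasG12D/+ against wild type, in Tet2+/- against wild type, in compound mutant against wild type and in compound mutant against Tet2+/-, and 0% in compound mutant against NrasG12D/+. At an unadjusted p under 0.05, H2-Ab1 was the 1 member counted in Tet2+/- against wild type, where 3.35% of all genes were counted, and no member was in NrasG12D/+ against wild type (5.61% of all genes), compound mutant against wild type (6.42%), compound mutant against NrasG12D/+ (4.04%) or compound mutant against Tet2+/- (5.45%). Voom on the recovered reads also called none, and it counted the same number, 0 or 1, at the unadjusted level in each. Half-widths of the 95% intervals ran from 0.58 to 1.45 on the log2 scale in the pairwise comparisons, which for Cd74, the widest, is 2.73-fold to either side of the estimate.

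**Figure D3:**
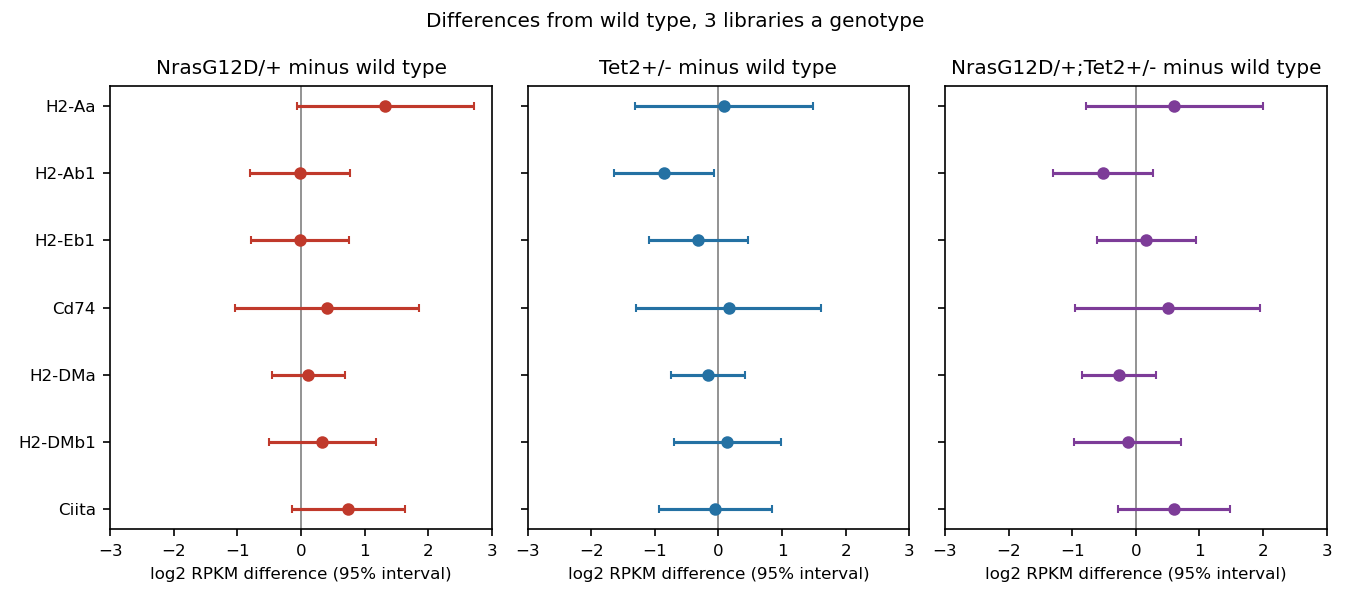
Log2 RPKM difference from wild type of each member in NrasG12D/+, Tet2+/- and compound mutant HSCs, with the 95% interval from limma (3 libraries a genotype). H2-Aa lies furthest right in NrasG12D/+ at 1.32 and H2-Ab1 furthest left in Tet2+/- at -0.86, and each interval but that of H2-Ab1 in Tet2+/- includes 0.

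A difference in the effect of Tet2+/- between the Nras genotypes was not detectable with 3 libraries a group. No member was called in the interaction (0.0129% of genes were) or had an unadjusted p under 0.05 there (3.38% of genes did), with a smallest adjusted p of 0.996 in limma, and the estimate furthest from 0 was that of H2-Aa at -0.81 (-2.78 to 1.17), which was -0.01 without wild-type replicate 1 and 0.18 without that library and NrasG12D/+ replicate 2. In the comparison of compound mutant with NrasG12D/+ HSCs, in which the groups did not overlap for 0 members and for 8.48% of all genes, H2-Aa differed by -0.72 (-2.11 to 0.68) and H2-Ab1 by -0.50 (-1.28 to 0.29). Among female libraries alone, 2 of each genotype, these were -1.25 (-2.29 to -0.20; limma adjusted p = 0.909) and -1.17 (-1.74 to -0.60; limma adjusted p = 0.790). That fit was added after the data were seen, and the share of all genes with such intervals was not counted. The male libraries left out went the other way. H2-Aa had 9.77 RPKM in compound mutant replicate 1 and 7.69 in NrasG12D/+ replicate 1, and H2-Ab1 23.3 and 12.9 RPKM. Between compound mutant and wild-type HSCs 0 members and 11.2% of all genes did not overlap.

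The 2 alleles were then each averaged over the other, which sets 6 libraries against 6. With NrasG12D present all 7 members had a positive estimate, against 48.9% of all genes, though those of H2-DMa (0.0047) and H2-DMb1 (0.04) were close to 0. In NrasG12D/+ against wild type 5 of 7 were positive (51.4% of all genes), without H2-Ab1 and H2-Eb1. In compound mutant against Tet2+/- 5 of 7 were positive (47.1%), without H2-DMa and H2-DMb1. The median was 0.23 against -0.01 over all genes, and none was called (0.0323% of genes were). Ciita averaged 3.33 ± 1.22 RPKM in the 6 libraries with NrasG12D and 1.98 ± 0.395 RPKM in the 6 without (SD, n = 6 each), a log2 difference of 0.70 (0.07 to 1.32). Its unadjusted p was 0.033, which 7.24% of all genes passed at 0.05, and its adjusted p was 0.630 in limma. All 6 libraries with the allele were above 5 of the 6 without it, the exception being wild-type replicate 1. How many of all genes have this pattern was not counted. H2-Aa averaged 8.68 ± 3.38 RPKM with NrasG12D and 4.85 ± 2.28 without, a log2 difference of 0.92 (-0.07 to 1.91; limma adjusted p = 0.721). That difference was 0.52 without wild-type replicate 1. Among female libraries alone, with 1 library of Tet2+/-, it was 0.36.

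The sex of the mice is given beside Ciita. The highest Ciita value of NrasG12D/+, compound mutant and wild-type HSCs was that of the male library, while in Tet2+/- HSCs the female library was the highest (2.27 RPKM, against 1.73 and 1.797 in the male libraries). The log2 difference of male from female libraries within genotype was 0.54 (-0.05 to 1.12; limma adjusted p = 0.639), so a difference by sex was not established. Within each sex the sides did not overlap: the 2 male libraries with NrasG12D (4.92 and 4.81 RPKM) were above the 3 male libraries without it (1.73, 1.797 and 2.65), and the 4 female libraries with it (2.34 to 3.04) above the 3 female libraries without it (1.68 to 2.27). This held for 1.52% of all genes in one direction or the other. Sex was brought in after the data had been seen, and the split sets wild-type replicate 1, the exception above, against male libraries only. That Ciita meets this pattern is therefore no added support. With sex as a covariate the log2 difference was 0.79 (0.23 to 1.34; limma adjusted p = 0.511). Among female libraries alone, with 1 library of Tet2+/-, it was 0.37. All libraries numbered 1 are male, so sex and other features of those libraries cannot be told apart.

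With Tet2+/- present 6 of 7 members had a negative estimate, against 47.5% of all genes, though those of H2-Eb1 (-0.07) and Ciita (-0.09) were close to 0. The median was -0.16 against 0.02 over all genes, and none was called (0% of genes were). Each interval but that of H2-Ab1 included 0. In Tet2+/- against wild type 4 of 7 were negative (45.7% of all genes), and in compound mutant against NrasG12D/+ 5 of 7 (50.9%). H2-Ab1 averaged 12.8 ± 5.27 RPKM in the 6 Tet2+/- libraries and 19.97 ± 5.42 RPKM in the 6 with wild-type Tet2, a log2 difference of -0.68 (-1.23 to -0.12). The unadjusted p was 0.022, which 3.81% of all genes passed at 0.05, and the adjusted p was 0.963 in limma. Of the 6 Tet2+/- libraries 5 were below all 6 others, and compound mutant replicate 1, at 23.3 RPKM, was not. The share of all genes with such a pattern was not counted.

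Markers of other class II expressing cells were read beside the members. Of 12 B lineage names, 4 were analysed, and their summed level was 5.81 to 7.995 RPKM in NrasG12D/+, 2.21 to 5.46 in Tet2+/-, 4.50 to 9.72 in compound mutant and 4.25 to 6.67 in wild-type libraries. Cd79b, a chain of the B cell receptor complex, had the highest median of the 4, with 3.56 ± 0.969 RPKM in Tet2+/- libraries and 5.69 ± 1.46 RPKM in those with wild-type Tet2 (SD, n = 6 each), a log2 difference of -0.68 (-1.21 to -0.16; limma adjusted p = 0.963). Its estimate had the sign of that of H2-Ab1 and did not pass the threshold. Ighm, the mu heavy chain, had the opposite sign, with a mean of 1.36 RPKM in Tet2+/- libraries and 0.602 RPKM in those with wild-type Tet2. Most of the former came from compound mutant replicate 3, with 567 reads (6.10 RPKM). In HSCs with Tet2+/- alone the Ighm mean was 0.148 RPKM, against 0.883 in wild-type HSCs. Cd22, at 2 to 88 reads, had the sign of Cd79b, with means of 0.0142 RPKM in Tet2+/- libraries and 0.0401 RPKM in those with wild-type Tet2. The part of B lineage RNA in the H2-Ab1 result was not tested. Vpreb1, a surrogate light chain of B cell precursors, had 0 to 61 reads and a higher mean in Tet2+/- libraries. The 4 dendritic cell markers analysed, of 13, summed to 5.43 to 11.8 RPKM in NrasG12D/+, 9.98 to 16.4 in Tet2+/-, 6.66 to 10.5 in compound mutant and 4.004 to 24.8 in wild-type libraries, mostly Bst2. The 9 monocyte and macrophage markers, of 14, were mostly Lyz2, at 75.2 to 109.2 RPKM in all genotypes. Of the 13 dendritic and macrophage markers, 4 were highest in Tet2+/- replicate 1, which were Clec9a (154 reads, 0.603 RPKM), Zbtb46 (724 reads, 1.59 RPKM), C1qc (76 reads, 1.04 RPKM) and Mrc1 (221 reads, 0.875 RPKM), while Csf1r, Cd68, Cd14, Fcgr1 and Ms4a7 had 0 reads there. Of the same 13, 3 were highest in compound mutant replicate 2 and 3 in wild-type replicate 1. NrasG12D/+ replicate 2 had 2 and wild-type replicate 3 had 1. Tet2+/- replicate 1 had the highest H2-Eb1 level of the 12 libraries, and the highest Cd74 and H2-DMa levels of its genotype. Whether other cells have a part in this was not tested. Without Tet2+/- replicate 1 the log2 differences between Tet2+/- and wild-type HSCs were -0.71 for H2-Eb1, -0.15 for Cd74 and -0.33 for H2-DMa.

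**Figure D4:**
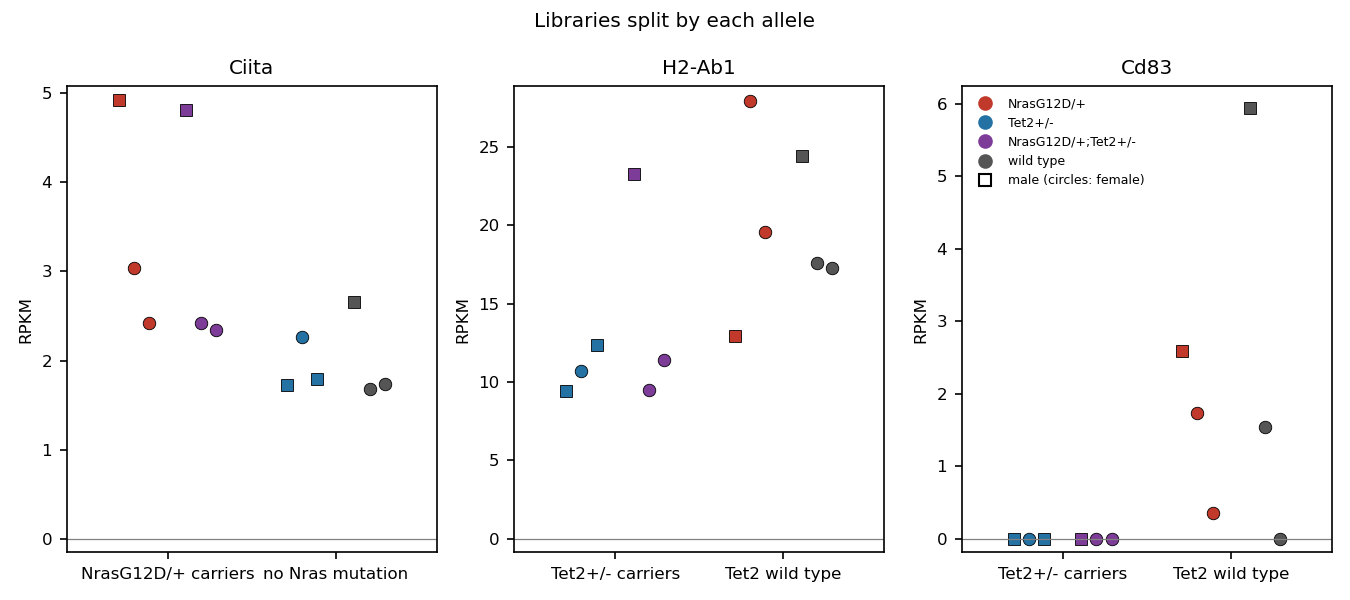
RPKM (linear axis) of Ciita in libraries with and without NrasG12D, and of H2-Ab1 and Cd83 in libraries with and without Tet2+/-, coloured by genotype, squares male and circles female. Ciita is above the other side's 5 lower libraries in all 6 with NrasG12D, H2-Ab1 is low in 5 of 6 Tet2+/- libraries, and Cd83 is at 0 in all 6 Tet2+/- libraries and in 1 wild-type library.

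Genes around the pathway were read from 7 lists, and none of their tested members was called in the 2 averaged comparisons in limma. Of the class II processing and turnover genes, 10 of 12 measured were tested. Cd83, a surface protein that counters the ubiquitin-driven loss of class II and CD86, had the smallest unadjusted p of them for Tet2+/-, with 0 reads in all 6 Tet2+/- libraries. It had 166, 109 and 28 reads in NrasG12D/+ libraries and 255, 82 and 0 in wild-type libraries. The mean of these 6 libraries, 2.03 RPKM, was 40.4-fold above the level of 3 reads a library in the Tet2+/- libraries. A count of 0 allows 3 reads by counting error alone. That ratio leaves out the spread between libraries, so it is no lower limit for a difference by genotype. Limma's adjusted p was 0.963. Cd83 was among the tested genes only because libraries with wild-type Tet2 reached 1 RPKM. Its p and its rank in the list are therefore no support for a difference. Without wild-type replicate 1 the mean was 1.25 RPKM and the ratio 24.8-fold. Of all 15478 genes tested, Cd83 was the 1 gene with 0 reads in all 6 Tet2+/- libraries and reads in at least 5 of the other 6, and 1 gene had the reverse pattern. This pattern was set after Cd83 had been seen, so that Cd83 meets it is no finding.

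Others of that list stood in the averaged Nras comparison. Ctss, the cathepsin that trims the invariant chain, averaged 7.03 ± 2.92 RPKM with NrasG12D and 4.22 ± 1.90 without, a log2 difference of 0.76 (-0.04 to 1.57; limma adjusted p = 0.718). March8, a ubiquitin ligase of class II and other surface proteins, averaged 1.81 ± 0.303 RPKM with NrasG12D and 2.71 ± 0.690 without (SD, n = 6 each), a difference of -0.56 (-1.10 to -0.03; limma adjusted p = 0.678). Ifi30, a lysosomal thiol reductase, was at 0 reads in 3 libraries.

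Signals and factors upstream of Ciita, 12 of 15 tested, had the smallest adjusted p of the 7 lists for NrasG12D, and 2 of them, Tgfb1 and Usf1, were past an unadjusted p of 0.05, as were 7.24% of all genes. Tgfb1, a cytokine known to restrain Ciita induction, had 27.8, 48.7 and 48.2 RPKM in NrasG12D/+, 24.4, 24.3 and 26.6 in Tet2+/-, 30.4, 35.7 and 40.9 in compound mutant and 23.4, 25.05 and 32.5 in wild-type libraries. With NrasG12D against without, its log2 difference was 0.55 (0.20 to 0.89; limma adjusted p = 0.407). Usf1, which binds the interferon-responsive Ciita promoter, had 3.4996, 4.78 and 2.63 RPKM in NrasG12D/+, 1.65, 2.08 and 1.97 in Tet2+/-, 2.95, 3.26 and 3.05 in compound mutant and 2.71, 1.83 and 1.29 in wild-type libraries. Its difference was 0.82 (0.27 to 1.36; limma adjusted p = 0.452), and 5 of 6 libraries without the allele were below all 6 with it. The share of all genes with this last pattern was not counted. Jak2 came next by p. The list's median was 0.19, against -0.01 over all genes.

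**Figure D5:**
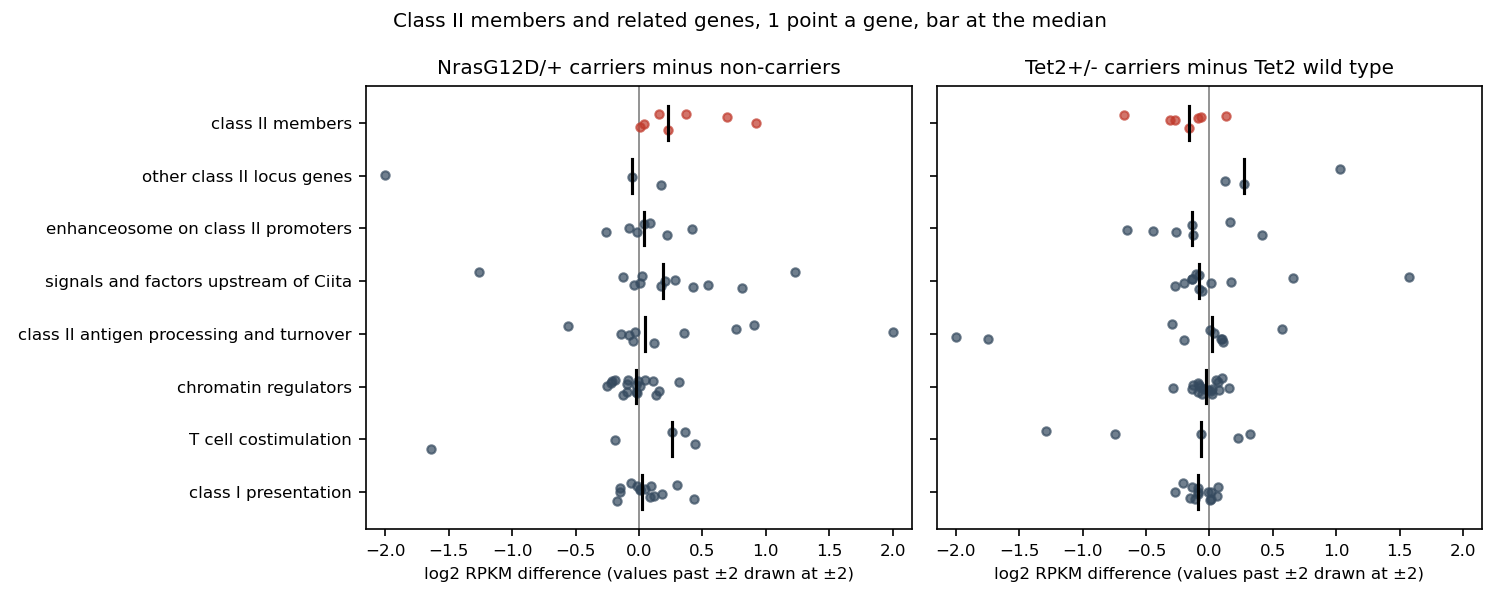
Log2 RPKM difference for each gene of the members and of the 7 lists (1 point a gene, black bar at the median), for libraries with against without NrasG12D and with against without Tet2+/-, 6 libraries each. Points past ±2 are drawn at ±2, and all 7 members lie at or right of 0 on the left panel while 6 of 7 lie left of 0 on the right panel.

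The X and Y box factors were all measured and tested. For Tet2+/- the 7 had a median difference of -0.13, against 0.02 over all genes, and 0 passed an unadjusted p of 0.05, which 3.81% of all genes did. Nfyb, a subunit of NF-Y, averaged 5.17 ± 1.20 RPKM in Tet2+/- libraries and 7.03 ± 1.77 RPKM in those with wild-type Tet2, a difference of -0.44 (-0.91 to 0.03; limma adjusted p = 0.963). Rfxap, a subunit of RFX, averaged 3.53 ± 1.65 RPKM in Tet2+/- libraries and 5.17 ± 1.45 RPKM in those with wild-type Tet2, while Rfxank, another subunit, was next by p with the opposite sign, at 6.49 ± 1.88 RPKM in Tet2+/- libraries and 4.81 ± 1.41 RPKM in those with wild-type Tet2. For NrasG12D the median of the list was 0.04.

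Chromatin regulators reported at these promoters, 18 of 18 tested, had medians of -0.03 for NrasG12D and -0.03 for Tet2+/-. Ezh2, the catalytic subunit of Polycomb complex PRC2, averaged 7.76 ± 0.727 RPKM with NrasG12D and 6.27 ± 0.959 without (SD, n = 6 each), a difference of 0.32 (0.04 to 0.59; limma adjusted p = 0.613). Next by p were Dnmt3a, a DNA methyltransferase, and Kat2b, a histone acetyltransferase, with the opposite sign. Dnmt3a averaged 6.43 RPKM with NrasG12D and 7.30 without, and Kat2b 7.04 RPKM with NrasG12D and 8.20 without. For Tet2+/- the first by p were Crebbp and Tet3, with positive estimates, and Hdac1, with a negative one.

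Of T cell costimulation genes 5 of 7 names were analysed. Cd86, a ligand of CD28, averaged 2.12 ± 0.860 RPKM in Tet2+/- libraries and 3.58 ± 1.56 RPKM in those with wild-type Tet2, a difference of -0.75 (-1.54 to 0.05; limma adjusted p = 0.963), with overlapping sides. Cd274, which encodes the inhibitory ligand PD-L1, averaged 26.3 ± 2.58 RPKM in Tet2+/- libraries and 21.5 ± 5.13 RPKM in the others. Class I presentation genes, 14 of 14 tested, had medians of 0.03 for NrasG12D and -0.09 for Tet2+/-. Psmb9, an immunoproteasome subunit, was first by p in both, and Erap1 and Tap1 followed for NrasG12D.

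Other genes of the class II region were low. H2-Ob, the beta chain of H2-O, which tempers H2-DM, had 1.97 to 4.01 RPKM. Its partner H2-Oa had 0 reads in NrasG12D/+ replicate 2, 14 in compound mutant replicate 1 and 66 to 349 in the other 10 libraries. H2-DMb2 had 0.387 to 2.13 RPKM, below H2-DMb1 in 12 of 12 libraries. H2-Eb2, a paralog of H2-Eb1, had 0 reads in 7 of 12 libraries and was too low to test.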

How the data were processed

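RNA from sorted SLAM HSCs was measured in 12 libraries, 3 per genotype. The authors deposited log2 RPKM per gene, with a small prior for genes without reads. CASAVA 1.8.2, TopHat2, edgeR and mm10 are named in the submitters' processing notes, with no role or order, and the annotation is not given in the sources used here. Whole reads were recovered from the values for 18546 of 18546 genes (100%), within 0.001 reads, with a prior of 0.25 reads.

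The filter kept 15478 genes that reached 1 RPKM in 3 or more libraries. A linear model in limma 3.58.1 (R 4.3.3) gave each genotype a mean (residual degrees of freedom 8) and let the variance follow the level, with two-sided tests and Benjamini-Hochberg adjustment over all genes kept. It was tested on simulated data. Correlations between members used NumPy 2.4.6, and those with other genes pandas 2.3.3. Between replicates of a genotype the chi-square per gene was 46.1 to 119.6, so no library was a repeat of another. Each genotype held libraries of both sexes, so at least 2 mice, while the labels do not say whether all 3 libraries come from separate mice, so p-values measure the spread between these libraries. Named were all 7 members and, from each list, up to 3 genes with the smallest p. The members and lists were chosen with earlier results of these data known. One marker gene is not reported here.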

Additional observations from a re-analysis of the deposited data

How the results depend on the processing

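No member was called in any of the 8 comparisons under any alternative run (0 of 1323 values, lowest adjusted p 0.467 in limma). These were no minimum RPKM, a pseudocount of 0.5 RPKM, median centring, quantiles made equal, a fit of just the groups of a pairwise comparison, the replicate number as a block, library weights, no variance trend, voom on the recovered reads and each library left out. Added after the data were seen were sex as a covariate, female libraries alone, and leaving out both wild-type replicate 1 and NrasG12D/+ replicate 2, the libraries with the most genes without reads. The female libraries include 1 of Tet2+/-. Of 852 recomputed values of the 36 log2 differences given, 803 kept their direction, 49 reversed and 0 passed, and the cause was not tested. The smallest adjusted p was 0.114 in limma, for Tgfb1.

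For NrasG12D/+ against wild type, H2-Ab1 reversed to 0.047 with library weights, 0.0058 with voom and 0.43 in females, and H2-Eb1 to 0.071 with weights, 0.077 without both libraries and 0.24 in females. Without both libraries Cd74 was -0.43 and H2-DMa -0.099. For Tet2+/- against wild type, H2-Aa was -0.081 with equal quantiles, -0.56 with weights, -0.11 with voom, -0.71 without both libraries and -0.48 in females, Cd74 was -0.14, -0.092 and -0.26 with weights, without both libraries and in females, and Ciita was 0.14, 0.16 and 0.41 under the same changes. H2-DMb1 was -0.0064 with sex as a covariate and -0.37 in females. The female values of Tet2+/- come from 1 library. For compound mutant against wild type, H2-Aa was -0.094, -0.19 and -0.51 and H2-DMb1 0.0027, 0.095 and 0.21 with weights, without both libraries and in females, and Cd74 was -0.28 in females. The interaction of H2-Aa was 0.18 without both libraries.

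With each library left out, differences from wild type that reversed in some fits ranged, in NrasG12D/+, from -0.29 to 0.26 for H2-Ab1, -0.20 to 0.21 for H2-Eb1, -0.18 to 1.05 for Cd74 and -0.018 to 0.25 for H2-DMa. In Tet2+/- they ranged from -0.71 to 0.50 for H2-Aa, -0.15 to 0.42 for Cd74, -0.28 to 0.50 for H2-DMb1 and -0.17 to 0.16 for Ciita. In compound mutants they ranged from -0.19 to 1.04 for H2-Aa, -0.020 to 0.40 for H2-Eb1, -0.025 to 0.95 for Cd74 and -0.40 to 0.095 for H2-DMb1.

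Pairing by replicate number was not settled. Of 18 same-numbered pairs of libraries 2 correlated above 0.1 (from -0.13 to 0.14). Their median was 0.03, against -0.02 for the other pairs, and 10 of 12 libraries were on average closer to their own number. With the replicate block Ciita differed by 0.70 with NrasG12D (adjusted p = 0.537 in limma) and 0 members were called. The difference of H2-Ab1 between Tet2+/- and wild type had an interval of -1.75 to 0.04 with the block.

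With each library left out, Ciita with NrasG12D ranged from 0.53 to 0.81, H2-Ab1 with Tet2+/- from -0.87 to -0.54 and H2-Ab1 in Tet2+/- against wild type from -0.96 to -0.69. Over all genes, few calls were made and their number depended on single libraries. It was 1 for NrasG12D/+ against wild type (18 without NrasG12D/+ replicate 3), 1 for Tet2+/- against wild type (20 without wild-type replicate 2), 1 for compound mutant against wild type (17 without the same library), 0 for compound mutant against NrasG12D/+ (12 without NrasG12D/+ replicate 3), 1 for compound mutant against Tet2+/- and 2 for the interaction (6 each without compound mutant replicate 3), 5 for NrasG12D averaged (17 without NrasG12D/+ replicate 3) and 0 for Tet2+/- averaged (7 without wild-type replicate 2). Under the other settings these counts ran, in the same order, 0 to 3, 0 to 2, 0 to 3, 0 to 3, 0 to 8, 0 to 3, 0 to 18 and 0 to 1.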
